A study of Mus musculus with 8 samples.

Results

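The levels of 11565 genes were compared between P19 cells given an siRNA against Upf3a and P19 cells given a control siRNA, at the start of a transcription block. P19 is a mouse embryonal carcinoma line, made of cells that resemble the early embryo and can be turned into neurons or into mesoderm. Both arms were transfected, and 24 h later actinomycin D, a drug that stops transcription, was added. RNA was taken in each arm at 0, 15, 105 and 225 min. The knockdown cells at 0 and 15 min and the control cells at 0 and 15 min are described here, 4 of the 8 conditions. The labels list 2 cultures for each condition, but the deposited table holds 1 combined value per gene and condition, in FPKM (fragments per kilobase of transcript, adjusted to library size), and a pair of confidence limits around it.

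Genes were kept where the mean over the 4 conditions was 1 FPKM or more, which left 11565 of 23284. Just inside this limit lay Ppip5k1, with 1.23 and 1.26 FPKM in knockdown cells, against 0.763 and 0.746 FPKM in control cells. Just outside it lay Eno4, with 0.699 and 0.919 FPKM in knockdown cells, against 1.21 and 1.17 FPKM in control cells. The 2 times serve as the 2 values of each arm. They are read as steady-state levels, and no decay is described. In each pair of values that follows, the first is from 0 min and the second from 15 min.

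UPF3A acts in nonsense-mediated decay (NMD), which removes mRNAs with a stop codon that is read as too early. The cue is often a protein complex left at an exon junction downstream of the stop codon. UPF3 proteins link that complex to UPF2 and the helicase UPF1. Mammals have a pair of such proteins, UPF3A and UPF3B. UPF3A has been described both as a weak stand-in for UPF3B and as an inhibitor of the pathway. NMD also sets the level of many ordinary transcripts, among them those of its own factors, of stress response genes and of splicing factors whose pre-mRNAs carry a poison exon.

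The FPKM totals were 537437 and 548042 in the knockdown conditions, against 562848 and 537350 in the control conditions, and 11487 to 11600 genes reached 1 FPKM in each. The depth in reads is not known, since FPKM is not a count. The upper limit lay 32.1% to 32.2% above the FPKM at the median in the 4 conditions. A value listed as failed at 0 min in knockdown cells touched 2 genes kept here, and in each condition 9 or 10 genes had an FPKM above their upper limit. All 12 embryonal carcinoma markers were expressed in every condition, from Trim71 at a mean of 34.3 FPKM to Pou5f1 at 1509.6 FPKM. Their summed level was 2857 and 2955 FPKM in knockdown cells, against 2471 and 2352 FPKM in control cells.

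The targeted gene was low in both knockdown conditions. Upf3a (chr8:13785615-13799193 (plus strand), GRCm38) had 5.27 and 4.52 FPKM in knockdown cells, against 13.6 and 13.95 FPKM in control cells. Its limits ran 3.34 to 7.20 FPKM at 0 min and 2.85 to 6.20 FPKM at 15 min in knockdown cells, against 9.19 to 17.97 FPKM at 0 min and 9.43 to 18.5 FPKM at 15 min in control cells, so the arms did not overlap at either time. The knockdown level was 35.6% of the control level. The difference on the log2(FPKM + 1) scale was -1.33 ± 0.08 (SE, limma, adjusted p = 0.0025), a scale on which the change of low genes is understated. An exact two-sided permutation test over the 4 values gave p = 0.33, the smallest value that 4 samples allow. In bulk RNA, fewer cells that make a transcript and less of it per cell cannot be told apart.

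Upf3b, the paralogue, had 9.80 and 8.24 FPKM in knockdown cells, against 10.9 and 11.9 FPKM in control cells, or 79.2% of the control level. Its limits overlapped at both times, and the difference of -0.31 missed the threshold (limma, adjusted p = 0.062). Of the 15 NMD factors measured, 2 rose and 1, Upf3a itself, fell, where 15.3% of all genes were called higher and 11.6% lower. Pnrc2, an adaptor between UPF1 and decapping, had 27.5 and 27.1 FPKM in knockdown cells, against 22.6 and 19.5 FPKM in control cells, a log2 difference of 0.37 (adjusted p = 0.02). Gspt1, the release factor eRF3a, had 50.2 and 48.4 FPKM in knockdown cells, against 42.6 and 38.2 FPKM in control cells, a difference of 0.28 (adjusted p = 0.029). Both calls ended when either time was left out, with log2 differences of 0.46 at 15 min and 0.27 at 0 min for Pnrc2, and of 0.33 and 0.23 for Gspt1. Upf2, the bridge between UPF3 proteins and UPF1, had 9.83 and 8.82 FPKM in knockdown cells, against 10.98 and 11.8 FPKM in control cells, which missed the threshold at -0.26 (adjusted p = 0.059). Upf2 passed it under 3 other settings, one of them with the spread taken from all 8 conditions. Differences of 0.06 for Upf1, 0.20 for the UPF1 kinase Smg1, -0.12 for Smg5 and 0.01 for the endonuclease Smg6 were not called. The median over the NMD factors was 0.012, against 0.0020 over all genes tested, and it turned to -0.018 with quantile normalization and to -0.0021 with GC and length trends removed, an alternative chosen after seeing the data.

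Across the 11565 genes, limma called 1772 higher in knockdown cells, which is 15.3%, and 1345 lower, which is 11.6% (Benjamini-Hochberg adjusted p below 0.05). The changes were small, with a median size of 0.37 log2 units among called genes. Only 371 of those called higher and 149 of those called lower moved by 1.5-fold or more, and 50 rose and 20 fell by at least 1 log2 unit. Without adjustment, 4847 genes had p below 0.05. The fit has 1 residual degree of freedom and each arm has 1 value per time, so these p-values cover the disagreement between the 2 times and not the spread between cultures. Whether the 2 times came from 1 transfection is not stated.

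The authors' confidence limits are the only error deposited with each value, and they were the stricter measure. The arms' limits were apart, in 1 direction, at both times for 57 genes higher in knockdown cells, 0.493% of those tested, and for 14 genes lower, 0.121%. All 71 were also called by limma. The higher ones differed by 0.62 to 1.79 log2 units and the lower ones by at least 0.90. Among the lower ones Mir3096 and Snora33, named after their values were seen, are small RNAs listed at 0 in both knockdown conditions. At 0 min alone the limits were apart for 69 genes higher and 27 lower, and at 15 min alone for 135 higher and 60 lower. The level of confidence behind the limits is not stated.

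Most genes differed in the same direction at both times. Of the genes tested, 9100, or 78.7%, had the same sign at 0 and 15 min. The median size of the difference between arms was 0.14 log2 units at 0 min and 0.16 at 15 min, while the median change from 0 to 15 min was 0.069 in knockdown cells and 0.082 in control cells. Pearson's r between the differences at the 2 times was 0.43 across all 11565 genes and 0.74 across the 11542 of them above 0 in all 4 conditions. The points are genes of the same 4 libraries, so this is a description and not a test.

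**Figure D1:**
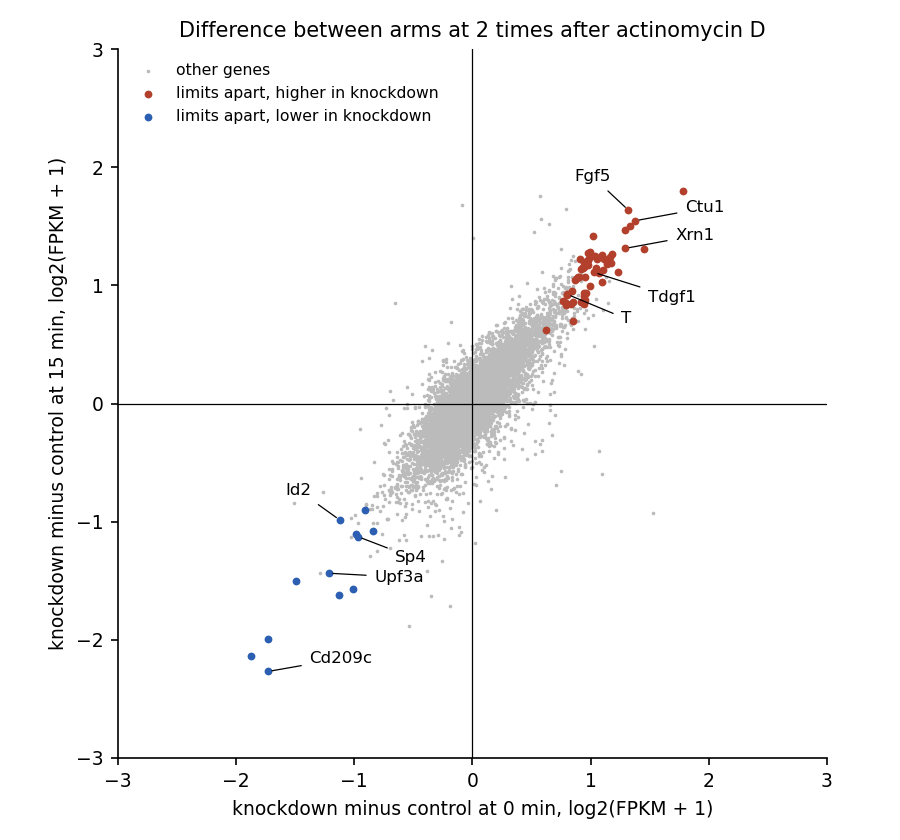
The log2(FPKM + 1) difference between knockdown and control cells at 0 min (horizontal axis) against that at 15 min (vertical axis), 1 point per gene; 27 genes beyond 3 log2 units are not drawn. Red and blue points are the 57 higher and 14 lower genes whose confidence limits were apart at both times, less Mir3096 and Snora33, which lie beyond the axes, and they lie along the diagonal at the outer ends of the cloud, with Fgf5 and Ctu1 at the upper end and Cd209c at the lower.

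The share of genes called fell with level. Among the 3211 genes from 1 to 5 FPKM, 15.7% were called higher and 17.0% lower. Among the 737 genes of 100 FPKM or more, 7.46% were called higher and 2.04% lower. Lower calls outnumbered higher ones only in the first of the 4 classes of level, and the median difference in these classes ran from -0.023 to 0.021. When all columns were scaled to the median of the ribosomal protein genes, the median of all genes moved to 0.10 and the calls to 3122 higher and 638 lower, so 83.0% of calls were higher instead of 56.8%. The gene lists are described by their counts and medians, beside those of all genes.

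Among genes of 5 FPKM or more with limits apart at both times, predicted genes and small RNAs aside, the largest increases were in an epiblast growth factor and a tRNA-modifying enzyme. Fgf5 (chr5:98254184-98277030 (plus strand)), a growth factor of the late epiblast, had 11.9 and 12.4 FPKM in knockdown cells, against 4.15 and 3.30 FPKM in control cells. Both knockdown values exceeded both control values, with a log2 difference of 1.48 ± 0.09 (adjusted p = 0.0025). Ctu1 (chr7:43672016-43678298 (plus strand)), which thiolates the wobble uridine of some tRNAs, had 8.95 and 9.47 FPKM in knockdown cells, against 2.83 and 2.58 FPKM in control cells, a difference of 1.46 ± 0.07. A pair of RNA polymerase III genes rose too. Polr3f (chr2:144527718-144541995 (plus strand)) had 7.96 and 6.99 FPKM in knockdown cells, against 2.95 and 2.32 FPKM in control cells, and Crcp (chr5:130029290-130060789 (plus strand)), also called Polr3i, had 13.7 and 12.1 FPKM in knockdown cells, against 6.46 and 4.63 FPKM in control cells. Their differences were 1.23 and 1.10.

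Rbm25 (chr12:83631236-83683123 (plus strand)), a splicing regulator, had 35.0 and 30.1 FPKM in knockdown cells, against 15.5 and 12.4 FPKM in control cells, a difference of 1.17. Rfx1, a transcription factor that binds X-box DNA, had 8.43 and 8.28 FPKM in knockdown cells, against 3.29 and 3.10 FPKM in control cells. The zinc finger genes Zfp146 and Zfp13 had 22.02 and 20.4 FPKM in knockdown cells, against 9.61 and 8.20 FPKM in control cells, and 7.35 and 7.21 FPKM in knockdown cells, against 2.87 and 2.74 FPKM in control cells. Lmnb2, a lamin of the nuclear envelope, had 23.9 and 26.4 FPKM in knockdown cells, against 11.6 and 10.3 FPKM in control cells, and Mmachc, a vitamin B12 processing enzyme, had 18.3 and 19.3 FPKM in knockdown cells, against 8.496 and 6.61 FPKM in control cells. Cdkn2aipnl and Ankrd40, whose roles are little known, had 29.2 and 29.0 FPKM in knockdown cells, against 14.1 and 11.3 FPKM in control cells, and 27.8 and 26.3 FPKM in knockdown cells, against 13.6 and 10.8 FPKM in control cells. In all of these 12 genes the limits were apart at both times, and log2 differences ran from 1.10 to 1.48 with adjusted p from 0.0021 to 0.0030. Annotated exons of another gene overlap Rbm25 and Rfx1 on the opposite strand. The labels do not state whether the libraries kept strand, so reads of such partners cannot be told apart. The same holds for Lysmd1, Prrg2, Leng9, Txnip, Cdh9, Gspt1, Spry1, Eomes, Dnmt3a, Id4, Axin2, Ccnd1, Srsf2, Casc3, Acin1, Eif4a2, Gadd45a, Atf5, Eif2ak3, Xrn1, Zfp36, Zfp36l2, Dgcr8, Idi1, Bnip3, Rb1, Plk1, Ei24 and Irf3.

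Among genes of 5 FPKM or more with limits apart at both times, predicted genes and small RNAs aside, the largest decreases were in a lectin receptor, the target itself and Id2. Cd209c (chr8:3940222-3954746 (minus strand)), a C-type lectin of the DC-SIGN family, had 62.4 and 39.5 FPKM in knockdown cells, against 209.7 and 194 FPKM in control cells, a difference of -2.0 ± 0.13 (adjusted p = 0.0027). The knockdown values were both far under the control values. Cd209c has close relatives in the mouse, among which reads could be split. Id2 (chr12:25093799-25097140 (minus strand)), which binds and blocks bHLH transcription factors, had 15.8 and 16.3 FPKM in knockdown cells, against 35.5 and 33.2 FPKM in control cells, a difference of -1.05 ± 0.07 (adjusted p = 0.0027). Sp4, a GC-box transcription factor, had 5.31 and 4.99 FPKM in knockdown cells, against 11.4 and 12.1 FPKM in control cells, a difference of -1.05. Lysmd1, a LysM-domain gene of little-known role, had 3.35 and 3.05 FPKM in knockdown cells, against 7.16 and 6.56 FPKM in control cells, a difference of -0.90. For these 4 genes and Upf3a the limits were apart at both times.

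Of the decreases called by limma with limits that overlapped at 0 or 15 min, 7 are given here, chosen by the size of the moderated t and not of the difference. Tcf19, a growth-regulated gene of late G1, had 6.16 and 6.52 FPKM in knockdown cells, against 13.6 and 13.7 FPKM in control cells. Prrg2, a membrane protein with a Gla domain, had 4.96 and 5.46 FPKM in knockdown cells, against 10.7 and 12 FPKM in control cells. Klf10, a TGF-beta-inducible repressor, had 9.99 and 9.07 FPKM in knockdown cells, against 18.7 and 19.4 FPKM in control cells. Both knockdown values lay under both control values in each, with differences of -0.998, -0.99 and -0.93. Il33, an alarmin cytokine, had 5.66 and 5.19 FPKM in knockdown cells, against 11.2 and 10.5 FPKM in control cells, and Txnip, an inhibitor of thioredoxin, had 13.6 and 12.3 FPKM in knockdown cells, against 24.6 and 23.5 FPKM in control cells. Leng9 and the cadherin Cdh9 had 4.31 and 4.01 FPKM in knockdown cells, against 8.58 and 8.29 FPKM in control cells, and 3.44 and 3.51 FPKM in knockdown cells, against 6.93 and 6.75 FPKM in control cells. Differences of these last 4 genes ran from -0.88 to -0.81.

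**Figure D2:**
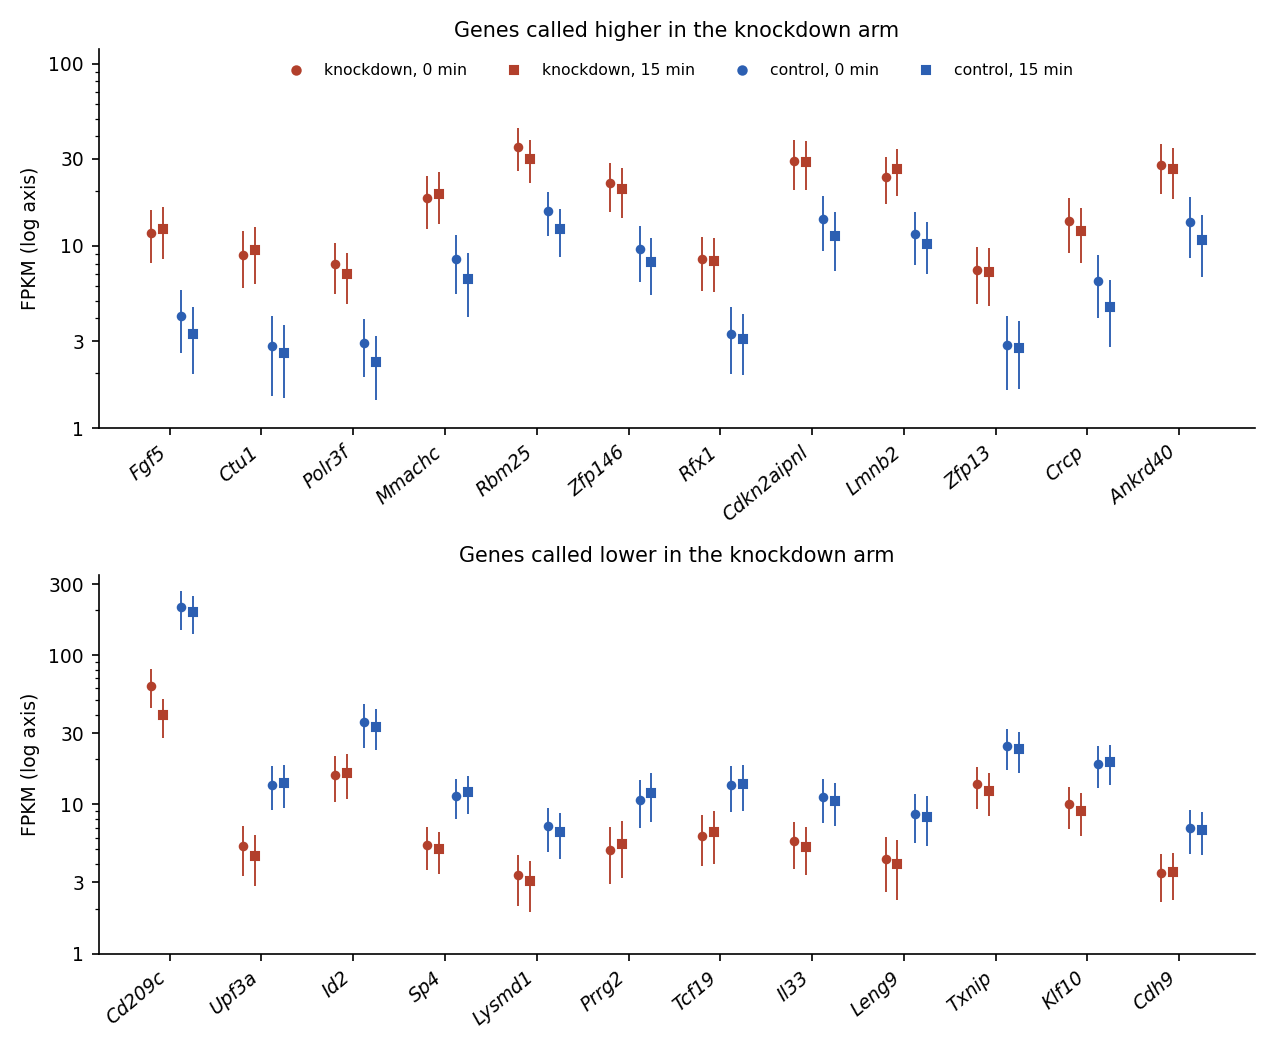
FPKM (log axis) of the 12 genes named as higher (upper panel) and the 12 named as lower (lower panel), with knockdown cells in red and control cells in blue, circles for 0 min and squares for 15 min; bars are the authors' confidence limits. The bars of the arms do not touch in the upper panel, and in the lower panel they are apart at both times for Cd209c, Upf3a, Id2, Sp4 and Lysmd1.

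Genes of FGF and ERK signalling mostly rose. In this pathway FGFs bind receptor kinases, ERK is activated, and ERK induces its own inhibitors, the Sprouty, Spred and Dusp genes, and Etv transcription factors. Of 23 genes measured, 15 were called higher (15.3% of all genes were) and 4 lower (11.6%), with a median log2 difference of 0.32 against 0.0020 over all genes tested. Among ligands, Fgf5 stood highest, and Fgf8 had 49.5 and 58.3 FPKM in knockdown cells, against 27.2 and 34.9 FPKM in control cells, a difference of 0.78 (adjusted p = 0.003). Among feedback inhibitors, Spry1 had 7.80 and 6.90 FPKM in knockdown cells, against 4.21 and 4.15 FPKM in control cells, a difference of 0.69. Spry2 had 18.4 and 16.2 FPKM in knockdown cells, against 11.8 and 10.3 FPKM in control cells, a difference of 0.60. Every knockdown value of these genes lay above every control value, though the limits of Fgf8, Spry1 and Spry2 overlapped. Also called higher were Etv4 (0.55), Spred3 (0.49), Spred1 (0.45), the receptor Fgfr1 (0.45), Spry4 (0.41) and Etv5 (0.40). Called lower were the phosphatases Dusp1 (-0.38), Dusp14 (-0.28) and Dusp5 (-0.23) and the receptor Fgfr2 (-0.28). Without the 0 min conditions 9 were called higher and none lower, and without the 15 min conditions 6 and none.

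Early mesoderm and endoderm genes were higher as well. Of 19 measured, 12 were called higher (15.3% of all genes were) and 1 lower (11.6%), with a median difference of 0.35. T (Brachyury), the T-box factor of the primitive streak, had 108 and 101 FPKM in knockdown cells, against 61.7 and 52.8 FPKM in control cells. Its difference was 0.86 (adjusted p = 0.0028), and its limits were apart at both times. Eomes, a second streak T-box factor, had 18.8 and 17.3 FPKM in knockdown cells, against 9.94 and 9.42 FPKM in control cells, a difference of 0.84. Lefty2, a Nodal inhibitor made in the streak, had 19.9 and 19.0 FPKM in knockdown cells, against 10.97 and 10.7 FPKM in control cells, a difference of 0.79. Kdr (0.59), Evx1 (0.56), Mixl1 (0.52), Lefty1 (0.49) and Wnt3 (0.41) were also called higher, and the chemokine receptor Cxcr4 was the 1 called lower (-0.49). The other 10 of the 29 genes on the list were below the level limit. With the 0 min conditions left out, 7 were called higher, and without the 15 min conditions 6.

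Among 25 genes of the core pluripotency network, 7 were called higher (15.3% of all genes were) and 3 lower (11.6%), with a median of 0.13. Tdgf1 (Cripto), the Nodal co-receptor, had 102 and 99.9 FPKM in knockdown cells, against 49.4 and 45.8 FPKM in control cells. Both knockdown values were above the control values, the limits were apart at both times, and the difference was 1.07 (adjusted p = 0.0025). Utf1, a chromatin-bound factor of undifferentiated cells, had 235 and 256 FPKM in knockdown cells, against 127 and 148 FPKM in control cells, a difference of 0.84. Nanog had 80.1 and 77.7 FPKM in knockdown cells, against 53.4 and 47.7 FPKM in control cells, a difference of 0.63. Klf2 had 7.78 and 7.40 FPKM in knockdown cells, against 4.06 and 4.05 FPKM in control cells, a difference of 0.77. Lower were Zfp42 (Rex1; -0.50), Fbxo15 (-0.43) and Klf5 (-0.28). Pou5f1 and Sox2, at the centre of the network, were not called.

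Of 15 genes of the primed epiblast, 5 were called higher (15.3% of all genes were) and none lower (11.6%) by limma. At an unadjusted p below 0.05, 1 was lower, and the median was 0.14. Dnmt3b, a de novo DNA methyltransferase, had 177 and 184 FPKM in knockdown cells, against 122.5 and 118 FPKM in control cells, a difference of 0.58. Foxd3 had 20.4 and 23.0 FPKM in knockdown cells, against 11.8 and 14.2 FPKM in control cells, a difference of 0.70. Dnmt3a (0.44), Nodal (0.44) and Fgf5 were the others, and the call of Dnmt3a ended without the 0 min conditions, where its difference was 0.40. Fgf5 and Nodal each stand on more than 1 of these lists, as do Fgf8, Lefty2, Klf2 and Tdgf1.

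In Wnt signalling 7 of 24 genes were called higher (15.3% of all genes were) and 1 lower (11.6%), with a median of 0.16. The lower one was the receptor Fzd5 (-0.36). The ligand Wnt8a had 25.4 and 24.0 FPKM in knockdown cells, against 13.5 and 13.9 FPKM in control cells, a difference of 0.80. Lrp6, the co-receptor, had 21.7 and 19.5 FPKM in knockdown cells, against 12.7 and 11.02 FPKM in control cells, a difference of 0.75. Ccnd1 (cyclin D1), a target of the pathway, had 21.1 and 20.1 FPKM in knockdown cells, against 12.3 and 10.7 FPKM in control cells, a difference of 0.79. Axin2, the classic feedback target, had 8.80 and 7.37 FPKM in knockdown cells, against 5.79 and 4.78 FPKM in control cells, a difference of 0.53. Its call ended without either time, though its differences at the 2 times were alike, at 0.53 and 0.53. Those fits took their spread from 105 and 225 min, where Axin2 differed by 0.52 and 0.025. From the 15 min conditions alone 5 genes were called higher, and without the 15 min conditions 3.

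Genes of Nodal and TGF-beta signalling moved unevenly. Of 24 measured, 7 were called higher (15.3% of all genes were) and 1 lower (11.6%). The median was 0.00010, which turned negative with median-of-ratios scaling (-0.0071) and with quantile normalization (-0.0037). Beside Tdgf1, Lefty2, Nodal and Lefty1, the higher ones were Tgfb1 (18.7 and 19.7 FPKM in knockdown cells, against 12.5 and 13.2 FPKM in control cells; 0.54), the Nodal convertase Furin (0.39) and the repressor Ski (0.33). The 1 called lower was Bambi (-0.74), a decoy receptor. The Smads, the activin receptors Acvr1b, Acvr2a and Acvr2b and the TGF-beta receptors Tgfbr1 and Tgfbr2 were not called.

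Among BMP signalling and Id genes the calls were lower ones. None of 17 was called higher by limma (15.3% of all genes were) and 6 were called lower (11.6%), with a median of -0.14. At an unadjusted p below 0.05, 1 was higher. Id2 fell the most. Bambi, a decoy receptor induced by BMP, had 4.49 and 4.07 FPKM in knockdown cells, against 7.90 and 7.65 FPKM in control cells, a difference of -0.74. Id4 had 3.00 and 3.29 FPKM in knockdown cells, against 4.95 and 5.50 FPKM in control cells, a difference of -0.59. Id1 had 51.9 and 65.8 FPKM in knockdown cells, against 68.7 and 86.9 FPKM in control cells, a difference of -0.40. Its call ended without either time (-0.40 and -0.40), in fits with the spread of 105 and 225 min, where it differed by -0.31 and -0.59. Smad6 (-0.41) and Bmpr1b (-0.24) were the others. Without the 0 min conditions 4 were called lower, and without the 15 min conditions 3. With ribosomal protein scaling the count was 5 lower and 2 higher, and the median stayed negative at -0.030.

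**Figure D3:**
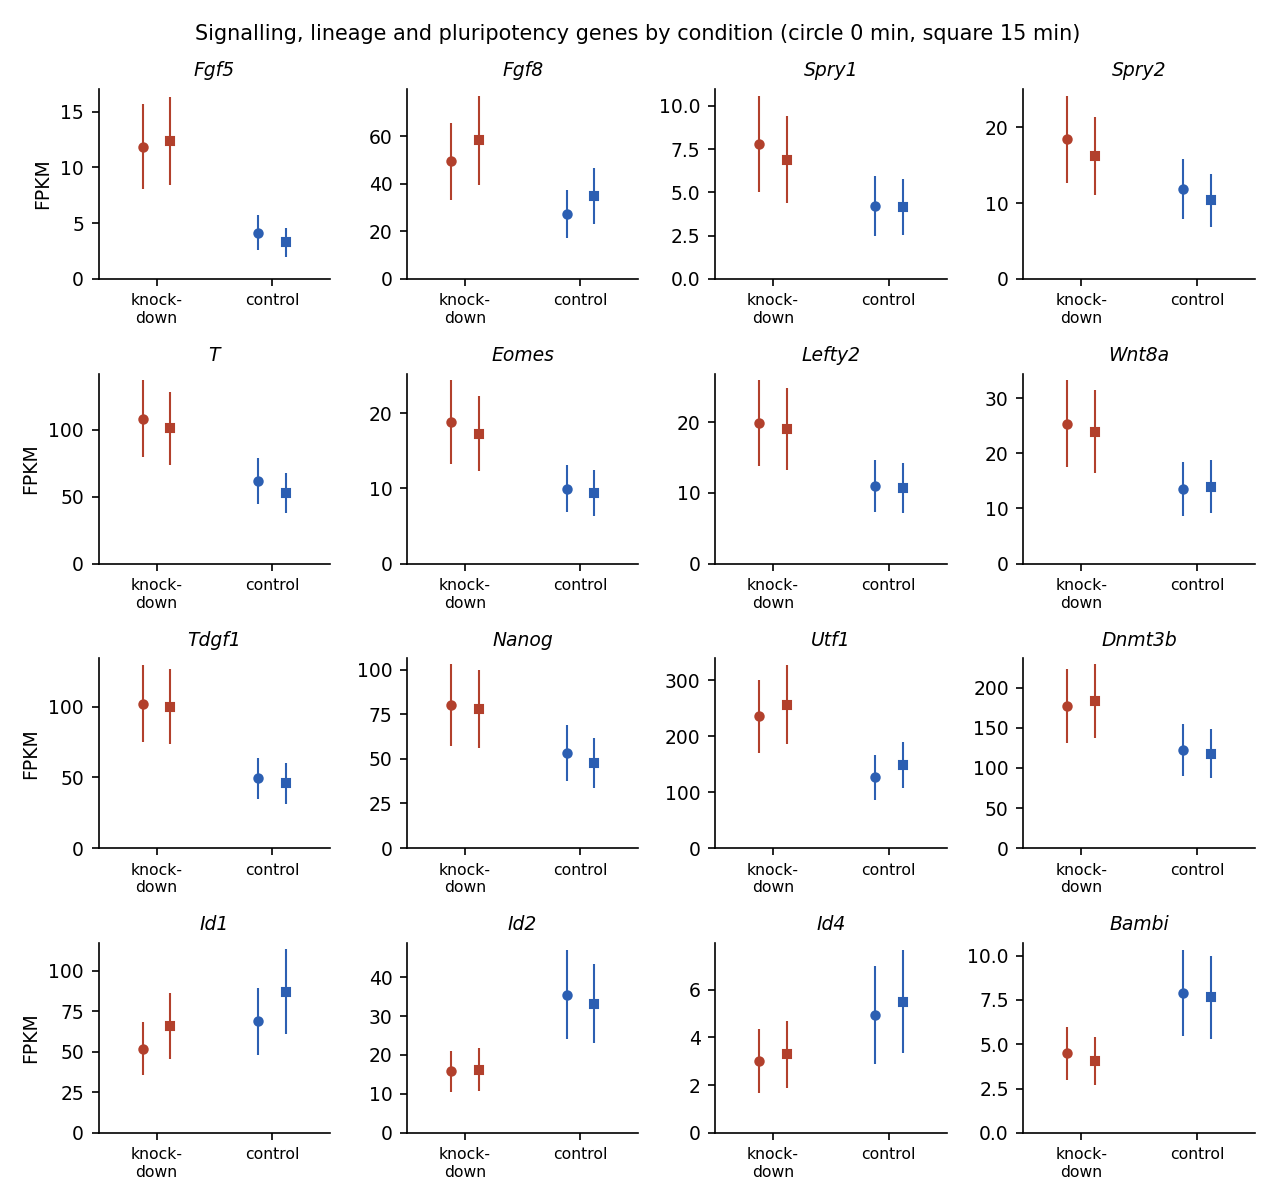
FPKM in knockdown (red, left) and control cells (blue, right) for 16 genes of signalling, lineage and pluripotency, circles for 0 min and squares for 15 min, bars for the authors' confidence limits, each axis from 0. The knockdown values lie above the control values in the upper 3 rows, from Fgf5 to Dnmt3b, and below them in the bottom row of Id genes and Bambi, and the bars of the arms are apart at both times for Fgf5, T, Tdgf1 and Id2.

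Neural and retinoic acid genes gave calls in both directions. Of 17 neural progenitor and neuron genes, 1 was called higher and 3 lower, where 15.3% of all genes were called higher and 11.6% lower, with a median of -0.032 that turned to 0.043 with ribosomal protein scaling. Elavl3, a neuronal RNA-binding protein, had 5.16 and 4.51 FPKM in knockdown cells, against 7.80 and 9.23 FPKM in control cells, a difference of -0.70, called with 15 min but not without it (-0.51). Elavl4 (-0.45) and Stmn2 (-0.22) were the others called lower, and Dll3 (0.48) was the 1 called higher. Of 13 retinoic acid response genes, 1 was called higher and 2 lower, with a median of 0.023 that turned to -0.037 with GC and length trends removed. Cyp26a1, which degrades retinoic acid, had 4.62 and 4.46 FPKM in knockdown cells, against 2.73 and 2.58 FPKM in control cells, a difference of 0.60 (adjusted p = 0.004). Crabp1 (-0.44) and Aldh1a2 (-0.35) were the 2 called lower.

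The other cells that a P19 culture could hold were looked for by their markers. The 5 neuron markers summed to 104 and 102 FPKM in knockdown cells, against 120.3 and 119 FPKM in control cells, from Dcx at a mean of 1.51 to Stmn2 at 58.0 FPKM. Of the 10 fibroblast and smooth muscle markers, 5 reached 1 FPKM, Tagln being highest at 8.82. They summed to 24.4 and 25.2 FPKM in knockdown cells, against 24.9 and 23.6 FPKM in control cells. Of 9 blood, endothelial and macrophage markers only Cd68 reached 1 FPKM, at 2.19. None of these 24 markers was at 0 in all 4 conditions. Among the neuron markers, Dcx was not lower, with 1.66 and 1.46 FPKM in knockdown cells, against 1.45 and 1.46 FPKM in control cells. The part of the lower neuron sum in the results was not tested.

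Splicing factors whose mRNAs carry poison exons, and which NMD is known to regulate, were often higher. Of 35 measured, 15 were called higher (15.3% of all genes were) and none lower (11.6%) by limma, with a median of 0.13. At an unadjusted p below 0.05, 1 was lower. Rbm25 led. Srsf2, an SR protein that controls its own level through NMD, had 388 and 392 FPKM in knockdown cells, against 289.6 and 288 FPKM in control cells, a difference of 0.43. Rbm39 had 79.5 and 78.6 FPKM in knockdown cells, against 59.8 and 53.1 FPKM in control cells, a difference of 0.48. Hnrpdl had 72.8 and 68.3 FPKM in knockdown cells, against 54.3 and 47.1 FPKM in control cells, a difference of 0.47. Each of these had both knockdown values above both control values. The rest of the 15 rose by smaller steps, from 0.24 for Srsf1 to 0.39 for Srsf9. FPKM sums all isoforms of a gene, so the productive and the poison-exon form were not measured apart. Most of these calls needed both times: 7 genes were called higher without the 0 min conditions and 1, Rbm25, without the 15 min conditions, where the differences of Srsf2, Rbm39 and Hnrpdl were 0.42, 0.41 and 0.42.

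Of the 15 exon junction complex genes, 2 were called higher (15.3% of all genes were) and none lower (11.6%) by limma. No more were lower at an unadjusted p below 0.05. The core subunit Casc3 had 34.2 and 35.0 FPKM in knockdown cells, against 25.5 and 23.6 FPKM in control cells, a difference of 0.48, with 0.41 and no call at 0 min alone. Acin1 was the other (0.23), and its call ended without either time, at 0.22 and 0.23. Those fits took their spread from 105 and 225 min, where Acin1 differed by 0.42 and 0.13. The core subunits Eif4a3, Magoh and Rbm8a were not called.

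Transcripts known as NMD targets did not move together. Of 28 measured, 3 were called higher (15.3% of all genes were) and 6 lower (11.6%). Their median of -0.082 turned to 0.016 with ribosomal protein scaling. Eif4a2, a translation factor with an NMD-sensitive isoform, had 84.7 and 75.3 FPKM in knockdown cells, against 48.8 and 42.7 FPKM in control cells, a difference of 0.79 (adjusted p = 0.0028). Sesn2, a stress-induced regulator of mTORC1, had 20.6 and 20.6 FPKM in knockdown cells, against 14.3 and 15.3 FPKM in control cells, a difference of 0.45. Its call ended without the 0 min conditions (0.40). Gadd45a, whose fly counterpart drives cell death when NMD is lost, had 3.61 and 3.18 FPKM in knockdown cells, against 5.91 and 5.27 FPKM in control cells, a difference of -0.58 (adjusted p = 0.0041). Chac1 was lower, with a difference of -0.42, not called without the 15 min conditions (-0.25). Atf4 and Gas5, a pair of commonly used NMD reporters, were not called.

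Hosts of small nucleolar RNAs, spliced transcripts that NMD degrades after the snoRNA is released, were called higher or lower at shares near those of all genes. Of 17 measured, 2 were called higher (15.3% of all genes were) and 2 lower (11.6%). Their median of -0.085 turned to 0.025 with ribosomal protein scaling. Snhg5 had 46.7 and 44.0 FPKM in knockdown cells, against 39.0 and 36.8 FPKM in control cells, and Snhg7 had 12.6 and 7.54 FPKM in knockdown cells, against 15.8 and 14.5 FPKM in control cells, with differences of 0.25 and -0.58. Leaving out either time ended the call of Snhg5 (0.25 and 0.25), and leaving out 15 min that of Snhg7 (-0.31). At 105 and 225 min, from which those fits took their spread, Snhg5 differed by 0.084 and -0.13.

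The integrated stress response is a translational stress pathway run by ATF4. Among its 29 genes, 2 were called higher (15.3% of all genes were) and 7 lower (11.6%). Their median of -0.082 turned to 0.023 with ribosomal protein scaling. Stc2 had 7.15 and 7.12 FPKM in knockdown cells, against 10.3 and 11.2 FPKM in control cells, a difference of -0.53, and the folate enzyme Mthfd2 had 52.3 and 47.8 FPKM in knockdown cells, against 69.6 and 62.2 FPKM in control cells, a difference of -0.39. Atf5, a transcription factor of the pathway, went up by 0.39, though its lower limit was 0 in all 4 conditions. Stc2 was not called without 15 min (-0.48), nor Mthfd2 or Atf5 without either time. Their differences were -0.37 and -0.41 for Mthfd2, and 0.33 and 0.45 for Atf5. Among 23 genes of the unfolded protein response 2 were called higher and 5 lower, with a median of -0.026 that turned to 0.084 with ribosomal protein scaling. The sensor kinase Eif2ak3 (PERK) had 10.4 and 10.3 FPKM in knockdown cells, against 13.5 and 14.1 FPKM in control cells, a difference of -0.38, and Xbp1 had 38.2 and 40.5 FPKM in knockdown cells, against 48.7 and 49.2 FPKM in control cells, a difference of -0.31. Neither was called without the 15 min conditions, at -0.35 and -0.34.

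Among the wider RNA decay machinery, 1 gene stood apart. Xrn1, the cytoplasmic exonuclease that degrades decapped RNA and the 3′ pieces left by NMD, had 6.48 and 5.77 FPKM in knockdown cells, against 2.05 and 1.72 FPKM in control cells. The limits were apart at both times, with a difference of 1.30 ± 0.06 (adjusted p = 0.0021). Over the 51 genes of the list, 6 were called higher (15.3% of all genes were) and 3 lower (11.6%), with a median of 0.079. Exosc6, a subunit of the exosome, had 69.9 and 76.9 FPKM in knockdown cells, against 50.4 and 53.4 FPKM in control cells, a difference of 0.49, and it was not called without 15 min (0.46). The lower confidence limit of Exosc6 was 0 in all 4 conditions. Zfp36, which binds AU-rich elements, fell, with a difference of -0.44, and its relative Zfp36l2 rose by 0.39. Neither passed the threshold without the 15 min conditions, at -0.42 and 0.46. Of 16 small RNA genes 4 were called higher and 1 lower. The microprocessor subunit Dgcr8 (0.43) and the Dicer partner Tarbp2 (0.47) led them, and neither was called at 0 min alone (0.42 and 0.37). Of 23 other genes for proteins that bind 3′ UTRs, 4 were called higher and none lower by limma (1 lower at an unadjusted p below 0.05).

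Many cholesterol synthesis genes were called lower. Cells make cholesterol from acetyl-CoA by a chain of enzymes whose genes are switched on together by SREBP transcription factors, with the help of NF-Y, which binds CCAAT boxes close to the start of transcription. Of the 30 genes measured none was called higher by limma (15.3% of all genes were) and 15 were called lower (11.6%). At an unadjusted p below 0.05, 1 was higher. Differences were below 0 in 27 of 30, with a median of -0.21. Ribosomal protein scaling gave 8 lower and 2 higher, with a median of -0.10.

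The 4 members with the strongest tests are shown with the 250 bases before their start of transcription, since these carry CCAAT boxes, found in most members with a promoter in the table. They are Hsd17b7 (chr1:169969206-169969455, minus strand), Insig1 (chr5:28071162-28071411, plus strand), Idi1 (chr13:8885356-8885605, plus strand) and Sc4mol, named Msmo1 in RefSeq (chr8:64733579-64733828, minus strand). The sequences are from RefSeq (GRCm38.p6), written 5′ to 3′ on the strand of the gene, and capitals mark CCAAT on either strand (ATTGG where it is on the other strand).
Hsd17b7: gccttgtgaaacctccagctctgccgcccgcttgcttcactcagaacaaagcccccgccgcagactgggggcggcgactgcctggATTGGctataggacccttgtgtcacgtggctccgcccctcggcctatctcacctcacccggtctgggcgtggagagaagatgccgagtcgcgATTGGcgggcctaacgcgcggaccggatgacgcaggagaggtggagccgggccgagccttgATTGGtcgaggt
Insig1: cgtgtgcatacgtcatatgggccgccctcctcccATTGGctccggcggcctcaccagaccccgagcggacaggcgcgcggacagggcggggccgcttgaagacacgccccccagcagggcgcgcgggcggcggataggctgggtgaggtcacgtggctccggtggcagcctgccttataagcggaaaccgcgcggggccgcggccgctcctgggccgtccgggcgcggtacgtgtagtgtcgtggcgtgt
Idi1: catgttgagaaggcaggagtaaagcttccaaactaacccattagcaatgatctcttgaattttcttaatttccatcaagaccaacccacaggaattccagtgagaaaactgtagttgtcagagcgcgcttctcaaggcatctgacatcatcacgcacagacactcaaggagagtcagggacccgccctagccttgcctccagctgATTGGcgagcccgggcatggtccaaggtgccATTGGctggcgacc
Sc4mol: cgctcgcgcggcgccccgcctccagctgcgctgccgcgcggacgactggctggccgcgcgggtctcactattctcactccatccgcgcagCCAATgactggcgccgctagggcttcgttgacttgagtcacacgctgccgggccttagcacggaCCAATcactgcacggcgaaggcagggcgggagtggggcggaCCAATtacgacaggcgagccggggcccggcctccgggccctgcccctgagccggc
The boxes start 165, 73 and 12 bases before the start of transcription in Hsd17b7, 216 bases before it in Insig1, 45 and 14 bases before it in Idi1, and 160, 96 and 55 bases before it in Sc4mol. CCAAT was searched on both strands over the 250 bases, and matches of different motifs were counted apart even where they overlap. It was found in 20 of the 22 members with a promoter in the table, 90.9%, against 41.7% of the 8304 tested genes and 37.5% of all 27025 promoters. Among the 11 of these members that were called lower it was found in 10, also 90.9%, so it did not set the called members apart from the rest. The E-box CACGTG was found in 5 of 22, 22.7%, against 10.2% of tested genes, and all 5 were called lower. TCACNCCAC, letters of a sterol regulatory element, was found in 1 of 22, 4.55%, against 1.28%. The motifs were chosen after the values were seen, and a match is not a site.

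Hsd17b7, a ketoreductase of the late pathway, had 4.87 and 5.31 FPKM in knockdown cells, against 8.40 and 8.28 FPKM in control cells. The knockdown values were both under the control values, with a difference of -0.62 ± 0.07 (adjusted p = 0.0043). Insig1, which holds SREBP in the endoplasmic reticulum, had 27.5 and 29.2 FPKM in knockdown cells, against 37.5 and 43.3 FPKM in control cells, a difference of -0.49. Idi1, the isopentenyl diphosphate isomerase, had 63.8 and 69.8 FPKM in knockdown cells, against 88.9 and 93.1 FPKM in control cells, a difference of -0.44. Sc4mol, the sterol C4-methyl oxidase, had 24.2 and 25.8 FPKM in knockdown cells, against 31.9 and 37.2 FPKM in control cells, a difference of -0.45. In each gene the arms did not overlap in value, though the limits did. The cyclase Lss (-0.36), Fdft1 (-0.30), Fdps (-0.27) and the regulator Srebf1 (-0.39) were called lower too. Sqle and Hmgcs1 were not called. At 15 min alone 6 genes were called lower, and without the 15 min conditions 2, Hsd17b7 and Idi1. At 0 min the differences of Insig1 and Sc4mol, not called there, were -0.43 and -0.39.

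Fatty acid genes, which SREBP also drives, were called higher or lower at shares near those of all genes. Of 14 measured, 2 were called higher (15.3% of all genes were) and 2 lower (11.6%). Their median of -0.034 turned to 0.076 with ribosomal protein scaling. The desaturase Scd1 had 39.96 and 40.7 FPKM in knockdown cells, against 50.9 and 56.8 FPKM in control cells, a difference of -0.41, and was not called without 15 min (-0.34). Acss2 (-0.30) was also called lower, and Aacs (0.39) and Elovl1 (0.28) were called higher. The lower limit of Elovl1 was 0 in both control conditions.

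Among glycolysis and hypoxia-response genes the calls were lower ones. Of 30 measured none was called higher by limma (15.3% of all genes were) and 8 lower (11.6%). At an unadjusted p below 0.05, 1 was higher. Differences were below 0 in 24 of 30, with a median of -0.18, which was -0.064 with ribosomal protein scaling. P4ha1, a collagen prolyl hydroxylase induced by HIF1, had 8.27 and 9.12 FPKM in knockdown cells, against 12.5 and 14.3 FPKM in control cells, a difference of -0.57. Bnip3, a HIF1-induced mitophagy receptor, had 37.6 and 43.9 FPKM in knockdown cells, against 55.1 and 74.5 FPKM in control cells, a difference of -0.65. Pgk1, a glycolytic enzyme, had 872 and 842 FPKM in knockdown cells, against 1050.0 and 1039.8 FPKM in control cells, a difference of -0.29. The call of Pgk1 ended without either time (-0.30 and -0.27), and those of Bnip3 ended without the knockdown value at 0 min or the control value at 15 min. Vegfa (-0.49) and Ldha (-0.22) were called lower, while Gapdh and Slc2a1 were not called. With the 0 min conditions left out, 6 genes were called lower, and without the 15 min conditions 2.

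Of the 80 ribosomal protein genes 1 was called, where 11.6% of all genes were called lower. Differences were below 0 in 75, with a median of -0.12 and a range of -0.29 to 0.11, but only Rpl13a passed the test. Rpl13a had 950.1 and 956 FPKM in knockdown cells, against 1151 and 1091 FPKM in control cells, a difference of -0.23 (adjusted p = 0.047), and shares its locus with small nucleolar RNAs. Its call ended without the 0 min conditions (-0.19), without the 15 min conditions (-0.28) and under quantile normalization, which left the list's median at -0.039. Together these genes made up 142269 and 143668 FPKM in knockdown cells, against 157252 and 151469 FPKM in control cells. Since FPKM is relative to the total, a lower share of such abundant transcripts and a higher share of the rest cannot be told apart. Of 76 nuclear-encoded oxidative phosphorylation genes, limma called 6 higher (15.3% of all genes) and none lower (11.6%). At an unadjusted p below 0.05, 2 were lower. Their median of -0.0084 turned to 0.10 with ribosomal protein scaling. The complex I subunit Ndufa5 had 59.7 and 55.0 FPKM in knockdown cells, against 44.4 and 37.1 FPKM in control cells, a difference of 0.49, not called at 0 min alone (0.42).

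Of 31 cell cycle genes of G1 and S, 5 were called higher and 5 lower, where 15.3% of all genes were called higher and 11.6% lower. Their median of -0.011 turned to 0.10 with ribosomal protein scaling. Rbl1 and Rb1, of the retinoblastoma family, moved in opposite ways. Rbl1 (p107) had 5.57 and 5.13 FPKM in knockdown cells, against 2.72 and 1.81 FPKM in control cells, a difference of 0.97 (adjusted p = 0.0034). Rb1 had 1.12 and 1.26 FPKM in knockdown cells, against 2.70 and 2.89 FPKM in control cells, a difference of -0.79 (adjusted p = 0.0028). The limits of the arms overlapped at both times for Rb1 and at 0 min for Rbl1. Ccng2, a cyclin that restrains proliferation, had 6.03 and 6.86 FPKM in knockdown cells, against 11.8 and 18.2 FPKM in control cells, a difference of -1.08. E2f1 (-0.63) and Pcna (-0.27) were lower, and none of the Mcm genes on the list was called. Of 30 mitosis genes 4 were called higher and none lower by limma (1 lower at an unadjusted p below 0.05), with a median of 0.086. The mitotic kinase Plk1 had 109 and 109 FPKM in knockdown cells, against 82.2 and 74.4 FPKM in control cells, a difference of 0.47, and at 0 min alone (0.40) neither it nor any other mitosis gene was called.

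Of 28 p53 targets, 5 were called higher (15.3% of all genes were) and 9 lower (11.6%). Their median of -0.085 turned to 0.018 with ribosomal protein scaling. Apaf1, the caspase activator, had 7.68 and 7.35 FPKM in knockdown cells, against 11.4 and 11.8 FPKM in control cells, a difference of -0.57. Ei24, an endoplasmic reticulum protein, had 18.8 and 18.04 FPKM in knockdown cells, against 12.7 and 10.9 FPKM in control cells, a difference of 0.61. Mdm4, a p53 inhibitor, had 10.8 and 9.66 FPKM in knockdown cells, against 7.43 and 6.71 FPKM in control cells, a difference of 0.48, not called without 15 min (0.48). Beside Gadd45a, Mdm2 (-0.30), Bbc3 (PUMA; -0.36) and Btg2 (-0.36) were lower. Cdkn1a (p21) was not called. Without the 0 min conditions 4 were called lower, and without the 15 min conditions 2.

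Immediate early genes, whose mRNAs are made and lost within minutes, gave 3 calls higher (15.3% of all genes) and 7 lower (11.6%) of 25. Their median was -0.17. Myc had 15.6 and 14.1 FPKM in knockdown cells, against 8.82 and 7.70 FPKM in control cells, a difference of 0.77 (adjusted p = 0.0028). Klf10, Cyr61 (-0.46), Ctgf (-0.46) and Dusp1 (-0.38) were lower. Ier3, a gene picked after seeing its values, had 5.13 and 6.96 FPKM in knockdown cells, against 7.88 and 28.4 FPKM in control cells, a difference of -1.21. Its control value rose between the times, so this difference rests mostly on 15 min and is not one of steady levels. At 15 min alone 5 were called lower, and without the 15 min conditions 3.

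Transfected RNA can set off the response to interferon and double-stranded RNA. Its genes gave 3 calls higher (15.3% of all genes) and 1 lower (11.6%) of 18, with a median of 0.0032. Irf3 had 11.7 and 13.7 FPKM in knockdown cells, against 6.94 and 6.997 FPKM in control cells, a difference of 0.78 (adjusted p = 0.0035). The effectors Isg15, Oas1a and Eif2ak2 were not called. Both arms were transfected, so a response that the arms share would not appear in these differences. The other 20 of the 38 genes on the list were below the level limit.

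**Figure D4:**
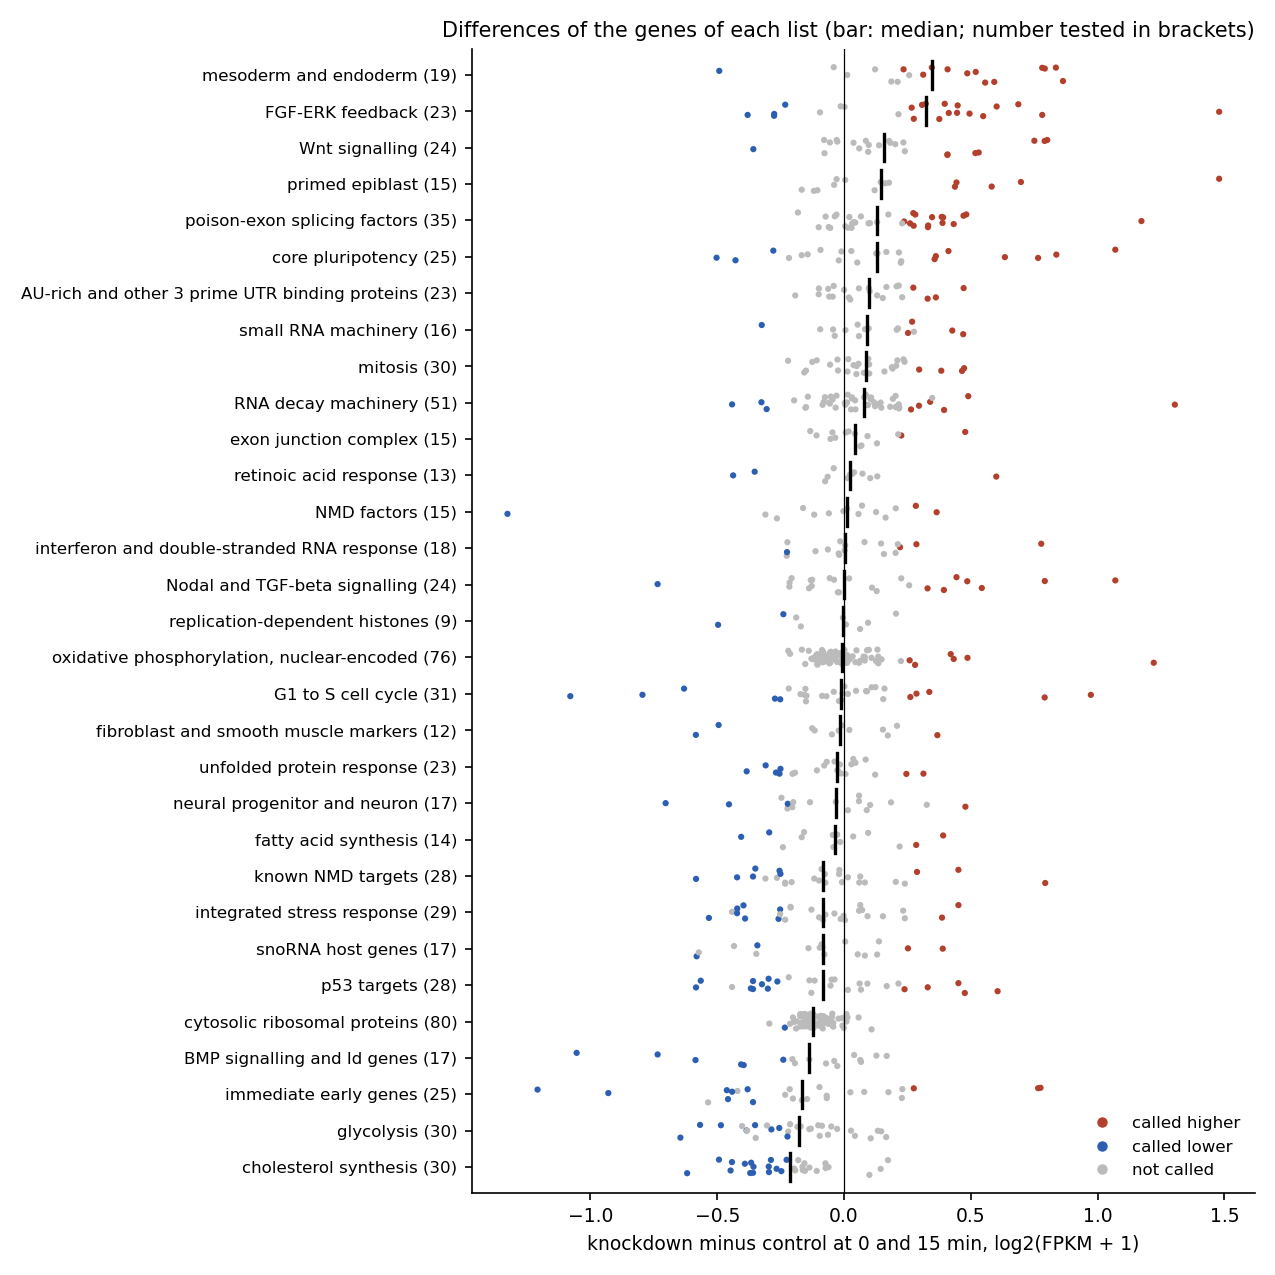
The knockdown minus control difference in log2(FPKM + 1) over 0 and 15 min (horizontal axis) of every tested gene of 31 lists (rows, number tested in brackets), red where called higher, blue where called lower, grey where not called, with a bar at each list's median. Mesoderm and endoderm and FGF-ERK genes lie farthest right, with medians of 0.35 and 0.32, and cholesterol synthesis farthest left, at -0.21.

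Calls differed with base composition. Over 11062 protein-coding genes with an annotated transcript, 22.4% were called higher and 7.48% lower in the top quartile of GC content, with a median of 0.061. In the bottom quartile of GC content 11.2% were called higher and 15.1% lower, with a median of -0.039. Median GC was 52.8% among genes called higher, 48.7% among those called lower and 50.4% among the rest. The part of GC content in the gene results was not tested. The median GC of the poison-exon list was 44.1% and that of the FGF-ERK list 53.8%.

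Calls were also counted by features that NMD is known to read. Among 39 genes with an annotated intron in the 3′ UTR more than 50 bases after the stop codon, 9 were called higher (23.1%) and 3 lower (7.69%). Of the 11023 genes without one, 15.5% were called higher and 11.3% lower. The medians were 0.0084 with such an intron and 0.0045 without. Among 3266 genes with an annotated NMD isoform, 15.4% were called higher and 9.64% lower, against 15.6% and 11.9% of the other 7796. Genes in the top quartile of 3′ UTR length were called higher in 14.6% and lower in 14.1%, and those in the bottom quartile in 14.7% and 8.41%. The median 3′ UTR was 1012 bases among genes called higher, 1292 among those called lower and 1003 among the rest.

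The differences at 0 and 15 min were set beside those at 105 and 225 min, in other libraries of the same arms. Of the 1772 genes called higher, 94.3% were also higher in knockdown cells at both late times, against 38.8% of all genes tested. Of the 1345 called lower, 95.5% were lower at both, against 36.4%. At the late times 1961 genes were called higher, 17.0%, and 1530 lower, 13.2%, in a limma fit of all 8 conditions. The spread in that fit included that at 0 and 15 min. Early and late calls therefore share part of their error and come from unlike tests, so the shared counts are a description. The genes called higher at both stages numbered 1428, which is 80.6% of the early and 72.8% of the late calls. For lower calls the shared number was 1016, 75.5% of the early and 66.4% of the late. All 57 genes that were higher with limits apart were called higher late, and 12 of the 14 lower ones were called lower late. Pearson's r between early and late differences was 0.88 across 11530 genes above 0 in all 8 conditions, given as a description across genes, with no test. A direct test of early minus late difference called 2 genes, 0.0173%, the small RNAs Snora31 and Snora65, with 443 genes at an unadjusted p below 0.05.

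Among the named genes, Fgf5 differed by 1.30 late, Tdgf1 by 1.14, Xrn1 by 1.36, Upf3a by -1.51 and Id2 by -0.89, each close to its early value. The primed epiblast list had a late median of -0.0048, against 0.14 early, and the snoRNA hosts one of -0.28, against -0.085. Klf2 had 0.77 early and 0.21 late, Bambi -0.74 and -0.12, and Foxd3 0.70 and 0.22. The early minus late test did not call these genes, which does not show that they differed alike at both stages.

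**Figure D5:**
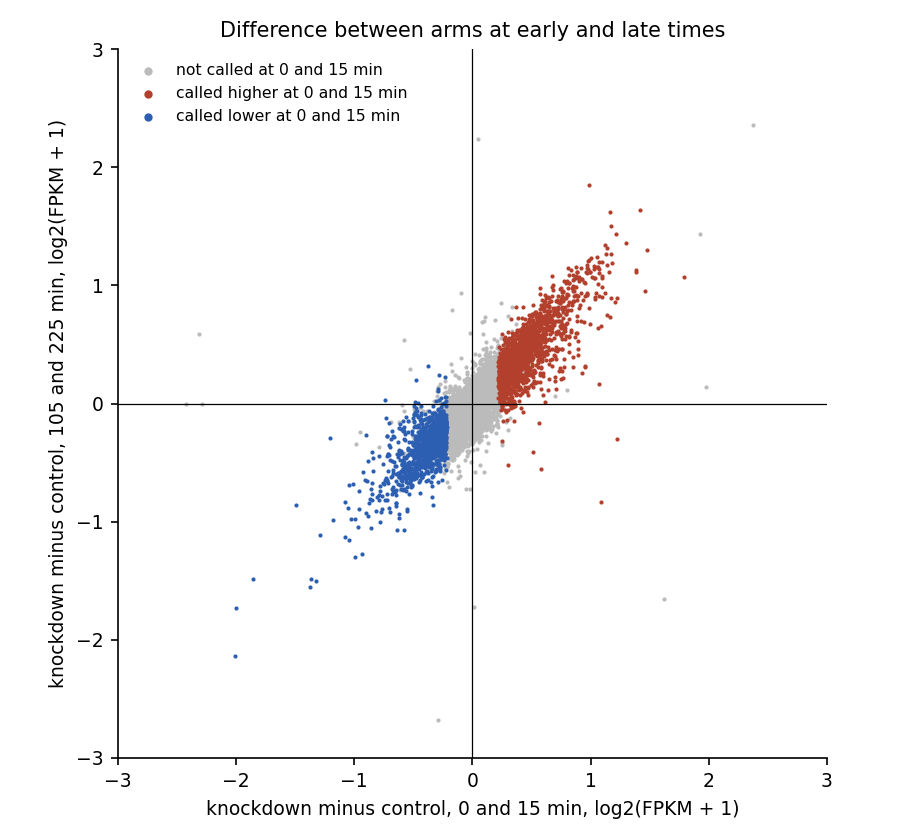
The knockdown minus control difference in log2(FPKM + 1) at 0 and 15 min (horizontal axis) against that at 105 and 225 min (vertical axis), 1 point per gene; 17 genes beyond 3 log2 units are not drawn. Genes called higher early (red) and lower early (blue) keep their side at the late times, 94.3% and 95.5% of them at both late times.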

How the data were processed

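RNA sequencing covered 2 siRNA arms of P19 cells at 4 times after actinomycin D. Per the submitters' processing notes, TopHat2 and Cufflinks were used with the mm10 build. Versions and annotation are not given in the sources used here, nor is any scaling between conditions. The authors deposited 1 FPKM value with 2 confidence limits per gene and condition, per the file headers. How the 2 cultures were combined is not stated.

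Values were analysed as log2(FPKM + 1) with limma 3.58.1 in R 4.3.3 (time as a factor plus arm, eBayes without trend, Benjamini-Hochberg adjustment over 11565 genes), and with Python 3.11.15. FPKM is not a count, so depth is unknown and no interval from counts is given. GENCODE vM21 (GRCm38) supplied gene features and matched 98.5% of the genes kept, and promoters came from RefSeq GRCm38.p6, which held 22 of 30 cholesterol genes. The fits were tested on simulated data, where false calls exceeded the share that the threshold allows and most of the smallest changes were missed. Genes kept with a locus shared by other genes numbered 2124, and their reads may be split.

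The genes studied and the 33 gene lists were chosen with earlier results of these data known. Of the list genes, 21 were matched by another symbol and 5 were not matched. Named genes are the 12 largest differences in each direction among called genes of 5 FPKM or more with the same sign and limits apart at both times, filled by moderated t where fewer passed. Up to 4 genes per list by moderated t and all NMD factors were added. Predicted genes, small RNAs and pseudogenes were left out. Other list members were named after their values were seen. Time is in the fit as the replicate block, since the labels give the same times in both arms, and the 0 to 15 min changes of the arms correlated at r = 0.14 across 11542 genes. The fit without the block and 16 other settings were tried. Fits without either time, also described as calls at the other time alone, took their spread from the late times. Values of some list members are not reported here.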

Additional observations from a re-analysis of the deposited data

Results flagged for a closer look

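A direct test of the difference between stages, in a limma fit of all 8 conditions, called 2 small nucleolar RNAs. Snora31 had 438 and 546 FPKM in knockdown cells at 0 and 15 min, against 496 and 338 FPKM in control cells. At 105 and 225 min it had 95.2 and 203 FPKM in knockdown cells, while both control conditions listed it at 0. The early minus late difference was -6.88 on the log2(FPKM + 1) scale (adjusted p = 0.0015). Snora65 was listed at 0 in all 4 knockdown conditions, against 59.7 and 146 FPKM at 0 and 15 min and listed values of 0 at 105 and 225 min in control cells. Its early minus late difference was -6.56 (adjusted p = 0.0015). Snora65 shares its locus with Rpl12. A listed value of 0 can be a failed estimate, and neither difference is a measured fold change.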

How the results depend on the processing

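In all, 17 settings were tried beside the one reported, 1 of them (length and GC trends removed) chosen after seeing the data, which called 2051 genes higher and 1797 lower of 11062. The counts of 1772 higher and 1345 lower genes moved by over 1.5 times with no filter on low values (575 higher, 273 lower) and with ribosomal protein scaling (3122 higher, 638 lower), and the lower count with a filter of 5 FPKM (893). The fit gave 936 higher and 577 lower genes from the 15 min conditions alone, and 476 higher and 235 lower from the 0 min conditions alone. Without the knockdown value at 0 min it gave 1166 and 808, without that at 15 min 1020 and 592, without the control value at 0 min 1595 and 961, and without that at 15 min 1064 and 658. In these fits the lone value is assumed to vary like the others. The fit without the replicate block called 1689 higher and 1265 lower. Limits were apart for 27 genes higher with a filter of 5 FPKM, for 135 higher and 60 lower at 15 min alone, and for 27 lower at 0 min alone. The early against late test called 0 genes by limma with a pseudocount of 5 (412 at an unadjusted p below 0.05) and with trend and robust variance (446). The Upf3a difference was -0.92 with a pseudocount of 5 and -1.48 with one of 0.1, and lay between these elsewhere. Of the genes named by rule, Ndufs5 turned to -0.16 without the control value at 15 min, and Hist1h4d to 0.21 without the knockdown value at 0 min and 0.15 without the control value at 15 min. The cause was not tested. Of the 147 genes, 147 were on the same side of the threshold with median-of-ratios scaling, 137 without the replicate block and 83 without the 15 min conditions. Depth cannot be judged from FPKM, so no limit from depth is given.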

Other observations

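The families in the next sentences were grouped after their values were seen. Of all genes tested, 57, or 0.493%, were higher with limits apart. Among these 57 are 9 named Zfp or Zscan: Zfp11, Zfp111, Zfp13, Zfp146, Zfp192, Zfp35, Zfp354c, Zfp768 and Zscan22. Of the 303 such genes tested, 73 were called higher (24.1%) and 32 lower (10.6%), against 15.3% and 11.6% of all genes, with a median log2 difference of 0.039 early and -0.030 at 105 and 225 min. Many such genes are close copies of each other, among which reads could be split. Subunits of the RNA polymerases were a second family. Of 29 genes named Polr1, Polr2 or Polr3, with Crcp, 7 were called higher (24.1%) and 2 lower (6.90%), with a median of 0.11. Polr1b, of RNA polymerase I, and Polr3f and Crcp, of RNA polymerase III, were higher with limits apart. That is 3 of the 29, beside 0.493% of all genes tested.

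Several small RNAs were listed at 0 in a whole arm. In both knockdown conditions 8 genes were listed at 0, among them Mir3096, at 849 and 812 FPKM in control cells, and Snora33, at 649 and 221 FPKM in control cells. In both control conditions 4 were listed at 0, among them Mir697, at 104 FPKM in knockdown cells at 0 min and listed at 0 at 15 min. Such values can be failed estimates and give no fold change.

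Of 48 replication-dependent histone genes 9 reached the level limit, with none called higher (15.3% of all genes were) and 2 lower (11.6%) by limma. None of the 9 was higher at an unadjusted p below 0.05. Their median of -0.0045 turned to 0.063 with ribosomal protein scaling, to 0.021 with a pseudocount of 0.1, to 0.025 with GC and length trends removed, to 0.23 at 0 min alone and to 0.28 without the control value at 15 min. Hist1h4d had 2.11 and 7.33 FPKM in knockdown cells, against 3.58 and 10.2 FPKM in control cells, so the times differed more than the arms. Ndufs5, of complex I, had 10.8 and 2.14 FPKM in knockdown cells, against 5.79 and 0.0011 FPKM in control cells, with overlapping limits at both times.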
